A study of Mus musculus with 2 samples.

Results

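The chemokine receptors described here are 9 genes chosen by symbol, out of 55536 gene rows of the deposited tables, in cultured mouse macrophages. They are the CC receptors Ccr1, Ccr2, Ccr3 and Ccr7, the CXC receptors Cxcr2, Cxcr3 and Cxcr4, the fractalkine receptor Cx3cr1 and the atypical receptor Ccrl2. The libraries hold polyadenylated RNA of whole cells, macrophages that had been grown from bone marrow of C57BL/6J mice and then exposed to a stimulus at 100 ng/mL for 300 min. The labels call the stimulus Lipid A in one field and lipoprotein A in others, so it is left unnamed here, and age and sex were not recorded. There is 1 group of 2 libraries, biological replicates 1 and 2, which share a donor record, and the labels leave unsaid if they were separate cultures, so the spread between them may be technical. With no unstimulated group analysed here, the values are levels after the stimulus and their spread between the libraries, and none is a response to the stimulus.

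Chemokine receptors are cell-surface receptors that most often signal through inhibitory G proteins and steer a cell along a gradient of chemokine. Ccr2 is the receptor by which classical monocytes leave the marrow, and Cx3cr1 marks patrolling monocytes and many tissue macrophages. Ccr7 guides dendritic cells and T cells to lymph nodes, Cxcr2 guides neutrophils, Cxcr3 guides activated T and NK cells, and Ccr3 guides eosinophils. Ccrl2 binds the chemoattractant chemerin but does not signal as a classical chemokine receptor.

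The libraries were deep, with expected counts (estimated reads per gene) summing to 38078399 in replicate 1 and 63705317 in replicate 2. All 7 macrophage markers on the list, from Itgam (53.4 and 56.2 TPM in replicates 1 and 2) to Lyz2, were well detected, as the label of the cells has it. The 7 summed to 14747 and 20700 TPM. Of them 2, Cd68 and Csf1r, were 1.5-fold higher in replicate 2 (28.6%, against 16.7% of all genes), and the other 5 were within 1.5-fold. TPM is a length-scaled share of all transcripts. Of the other lists, those for neutrophils, monocytes, dendritic, B and NK cells, and for eosinophils, basophils and mast cells, summed to more in replicate 1, and the T cell list did not. The 10 neutrophil markers summed to 516 and 26.9 TPM in replicates 1 and 2, with Ly6g at 0 counts in both. The 4 monocyte markers summed to 115.8 and 49.2 TPM, the 5 dendritic cell markers to 9.37 and 3.86 TPM and the 4 B cell markers to 1.51 and 0.60 TPM. In a bulk sample, fewer cells of a type and less RNA per cell cannot be told apart.

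Promoter sequences are shown for 4 receptors, and only the printed windows held a match to any motif searched. Ccrl2 was by far the highest, and Cxcr4 was higher in replicate 2. Ccr1 and Ccr3 lie in 1 gene cluster and were higher in replicate 1. Ccr2, in the same cluster and also higher in replicate 1, is not printed, and its window held no match to the searched motifs. The same holds for Cxcr3, which was higher in replicate 2 as Cxcr4 was. Ccrl2 has further starts, whose windows are not printed and held no match. Each printed sequence is the 250 bases before a RefSeq start on GRCm38.p6, read 5′ to 3′ on the gene's own strand. Matches to the searched motifs are in capitals. They lie at chr9:111057519-111057768 (minus strand, Ccrl2), chr9:123968693-123968942 (minus, Ccr1), chr9:124021721-124021970 (plus, Ccr3) and chr1:128592300-128592549 (minus, Cxcr4).
Ccrl2: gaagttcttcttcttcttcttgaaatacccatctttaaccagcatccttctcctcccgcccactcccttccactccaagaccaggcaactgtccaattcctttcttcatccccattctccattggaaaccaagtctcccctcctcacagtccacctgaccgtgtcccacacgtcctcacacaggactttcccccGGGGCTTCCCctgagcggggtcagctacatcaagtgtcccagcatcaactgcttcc
Ccr1: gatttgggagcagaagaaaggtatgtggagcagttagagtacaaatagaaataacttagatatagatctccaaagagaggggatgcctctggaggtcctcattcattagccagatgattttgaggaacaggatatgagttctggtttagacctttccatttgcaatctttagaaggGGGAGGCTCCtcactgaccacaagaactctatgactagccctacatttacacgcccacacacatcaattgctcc
Ccr3: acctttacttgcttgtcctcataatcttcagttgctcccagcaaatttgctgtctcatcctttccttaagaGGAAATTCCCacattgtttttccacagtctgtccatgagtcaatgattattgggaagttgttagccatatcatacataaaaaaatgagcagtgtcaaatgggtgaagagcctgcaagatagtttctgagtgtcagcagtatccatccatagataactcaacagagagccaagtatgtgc
Cxcr4: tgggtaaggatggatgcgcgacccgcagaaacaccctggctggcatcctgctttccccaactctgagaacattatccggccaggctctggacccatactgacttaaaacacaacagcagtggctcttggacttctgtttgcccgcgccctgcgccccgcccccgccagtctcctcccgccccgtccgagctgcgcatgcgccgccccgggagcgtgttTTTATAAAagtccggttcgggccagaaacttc
RefSeq gave starts for 8 of the 9 receptors, 10 starts in all, and none for Ccr7. The consensus bound by NF-kB, a main transcription factor family of the inflammatory response, was searched on both strands together with GAAA, any 2 bases and GAAA again (a core of interferon response elements), TTCNNNGAA (the STAT element) and TATAAA. The NF-kB consensus matched 3 of the 10 windows, those printed for Ccrl2, Ccr1 and Ccr3, against 7.25% of 32817 windows of the same length over all genes. The matches began 56, 74 and 179 bases before the start, on both strands at 1 overlapping place in Ccrl2 and on the opposite strand in Ccr3. In Cxcr4 the capitals are TATAAA on both strands, overlapping, from 32 bases before the start, a motif in 12.4% of all windows. Neither the interferon element core (2.97% of all windows) nor TTCNNNGAA (7.01%) occurred in any of the 10. A match is a description of letters, not a binding site.

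Of the 9 receptors 6 reached 1 TPM in both libraries, against 18% of all genes and 42.4% of protein-coding genes. The 6 were Ccrl2, Ccr1, Ccr3, Ccr7, Cxcr4 and Cxcr3. Ccr2 reached that level in replicate 1 alone, and Cx3cr1 and Cxcr2 lay far below it in both. Ccrl2 held 88.5% and 92.2% of the receptors' summed TPM in replicates 1 and 2. The median over the 9 receptors was 3.06 TPM by their mean, with 2.57 TPM in replicate 1 and 3.32 TPM in replicate 2.

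**Figure D1:**
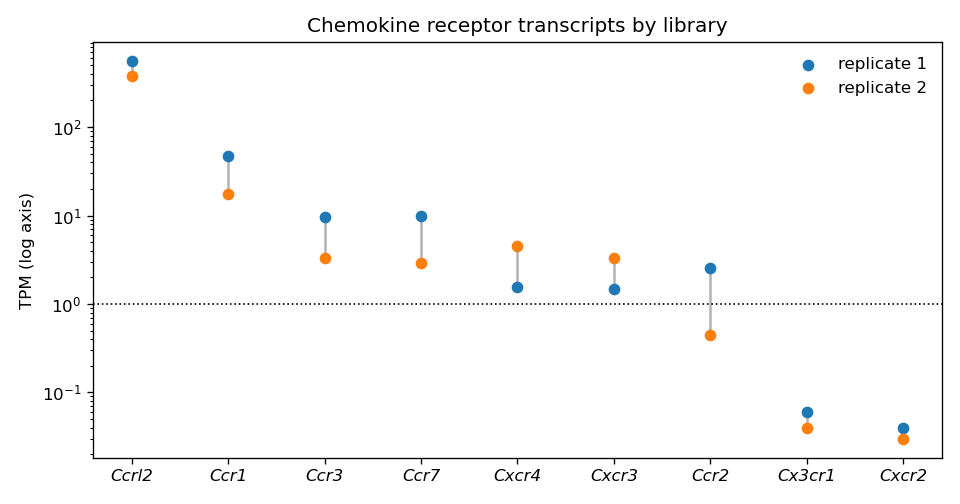
TPM of the 9 receptors on a log axis, ordered by mean, replicate 1 blue and replicate 2 orange; the grey bar joins the libraries and the dotted line marks 1 TPM. Ccrl2 stands above 380 TPM in both libraries, and the blue point is above the orange one for Ccr1, Ccr3, Ccr7 and Ccr2 but below it for Cxcr4 and Cxcr3.

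Neighbours in that order overlapped over much of the middle. The ranges of the libraries did not overlap between Ccrl2 and Ccr1, between Ccr1 and Ccr3, or between Ccr2 and Cx3cr1, and those of Cx3cr1 and Cxcr2 met at 0.04 TPM. Ccr3, Ccr7, Cxcr4, Cxcr3 and Ccr2, each next to the other in the order of means, overlapped with their neighbours in this run. Receptors further apart in it did not all overlap. Ccr3 (3.32 to 9.68 TPM) and Ccr7 (2.92 to 9.85 TPM) lay wholly above Ccr2 (0.45 to 2.57 TPM). The order itself changed between the libraries. In replicate 1 the 3 CC receptors Ccr7, Ccr3 and Ccr2 all stood above Cxcr4 and Cxcr3, and in replicate 2 both CXC receptors stood above Ccr7 and Ccr2.

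Ccrl2 (ENSMUSG00000043953.12, chromosome 9, 111054486 to 111057519, minus strand, mm10) had 555 TPM from 17783 counts in replicate 1 and 381 TPM from 23680 counts in replicate 2. Its mean was 468 ± 123 TPM (SD, n = 2), rank 316 among 22028 protein-coding genes. By counts scaled for library size (TMM) the libraries were close, with a log2 ratio of -0.15 for replicate 2 over replicate 1. Scaled by total counts alone, the log2 ratio was -0.33. The TPM gap was wider still, -0.54 on the log2(TPM + 1) scale. TPM also divides by the effective length assigned to the gene, which was 1278 bases in replicate 1 and 1511 in replicate 2. That length follows the mix of transcripts. Ccrl2-203, which begins 1 base from the start whose promoter is printed above, led in both libraries with 63.2% and 70.3% of the gene's TPM in replicates 1 and 2. The short transcript Ccrl2-202, with 399 coding bases against 1080 in the others, took 27.8% and 15.0%, and Ccrl2-201 took 8.92% and 14.7%. The next protein-coding gene, 11718 bases away, is the neutrophil granule gene Ltf, with 7.45 and 0.35 TPM. Its log2 ratio was -4.41, so these neighbours differed widely in their ratios.

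Of the chemerin genes beside Ccrl2, 1 of the 2 other receptors was detected and the ligand was not. Rarres2, which encodes chemerin, was at 0 counts in each library, a count that permits at most 0.15 TPM in replicate 1 and 0.088 TPM in replicate 2 (3 counts, counting error only). Cmklr1, the signalling receptor for chemerin, had 9.19 and 20.4 TPM, and Gpr1, another chemerin receptor, was at 0 counts in both. Cmklr1's log2 ratio was 1.32, replicate 2 over replicate 1, and 16.7% of all genes were 1.5-fold higher in replicate 2.

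Between the libraries 6 of the 7 receptors with enough counts for a ratio differed by 1.5-fold or more, against 35.8% of 12226 genes. With 1 library on each side there is no test, so these are folds between 2 libraries. The intervals given are exact 95% binomial intervals that cover counting error only. All 4 of these CC receptors were higher in replicate 1 (19.1% of all genes were) and both CXC receptors with enough counts were higher in replicate 2 (16.7% of all genes were). Cx3cr1 and Cxcr2 had too few counts and were left out.

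Ccr1, a receptor for Ccl3 and Ccl5, was the highest CC receptor (ENSMUSG00000025804.5, chromosome 9, 123962124 to 123968692, minus strand). It had 46.6 TPM from 2982 counts in replicate 1 and 17.3 TPM from 1846 counts in replicate 2, a mean of 32.0 ± 20.7 TPM (SD, n = 2). The log2 ratio was -1.25 (-1.34 to -1.17), or 2.38-fold higher in replicate 1. Ccr3, an eosinophil receptor for Ccl11 and Ccl24 (ENSMUSG00000035448.9, chromosome 9, 124021972 to 124031689, plus strand), had 9.68 and 3.32 TPM from 726 and 414 counts, a mean of 6.50 ± 4.497 TPM (SD, n = 2). Its log2 ratio was -1.37 (-1.55 to -1.20), or 2.58-fold higher in replicate 1. None of the 8 markers of eosinophils, basophils and mast cells reached 1 TPM in either library. They summed to 3.06 and 1.15 TPM, below Ccr3 itself, and Epx, the eosinophil peroxidase, was at 0 counts. The 2 of these markers with enough counts for a ratio were higher in replicate 2 (16.7% of all genes were). Their log2 ratios were 0.68 (-0.35 to 1.98) for Siglecf, from 10 and 25 counts, and 1.36 (0.73 to 2.17) for Kit. Markers left out by the count filter went the other way, with more counts in replicate 1. They were Prg2 (13 and 1 counts), Cpa3 (19 and 2), Ms4a2 (14 and 0), Mcpt8 (7 and 0) and Il5ra (8 and 4). The part of these cells in the Ccr3 ratio was not tested.

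Ccr2 had the largest fold of the 7 receptors by scaled counts (ENSMUSG00000049103.14, chromosome 9, 124101950 to 124113557, plus strand). It had 2.57 TPM from 228 counts in replicate 1 and 0.45 TPM from 59 counts in replicate 2, a mean of 1.51 ± 1.499 TPM (SD, n = 2). The log2 ratio was -2.47 (-2.95 to -2.09), or 5.52-fold higher in replicate 1. On the log2(TPM + 1) scale, which shrinks low genes, it was -1.30, behind Ccr7 (-1.47), Ccr1 (-1.38) and Ccr3 (-1.31). The monocyte markers Ly6c2 (30.1 and 13.8 TPM), Plac8 (30.4 and 12.2 TPM) and Chil3 (27.7 and 5.04 TPM) were also higher in replicate 1. By 1.5-fold that was 3 of the 4 on the list (75%, against 19.1% of all genes). The part of monocytes in the Ccr2 ratio was not tested. Counts of Ccr2 are fractional, and 4.33% to 8.41% of the 31-base runs of its 4 transcripts also occur in transcripts of other genes, so some of its reads could be assigned to more than 1 gene. The single-exon transcript Ccr2-202 led with 59.99% and 89.7% of its TPM, but in the second quantification Ccr2-201 led in replicate 1 with 43.0%.

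Ccr7 (ENSMUSG00000037944.8, chromosome 11, 99144196 to 99155077, minus strand) had 9.85 TPM from 419 counts in replicate 1 and 2.92 TPM from 208 counts in replicate 2, a mean of 6.38 ± 4.90 TPM (SD, n = 2). The log2 ratio was -1.56 (-1.82 to -1.33), or 2.95-fold higher in replicate 1. The dendritic cell markers Clec9a (2.43 and 0.43 TPM) and Siglech (1.49 and 0.22 TPM) were higher in replicate 1 as well. Itgax, the most abundant of the 5, was not past 1.5-fold (5.04 and 3.11 TPM, log2 ratio -0.54, and -0.73 with the GC and length trend removed), and Flt3 and Zbtb46 stayed below 1 TPM in both. The T cell receptor complex genes Cd3d, Cd3e and Cd3g had at most 1 count in either library in the gene tables, but Cd3d had 26.3 and 30.9 estimated counts in the second quantification, and Cd3g 1 and 4. The part of these cells in the Ccr7 ratio was not tested.

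Ccr1, Ccr3 and Ccr2 sit together within 151 kb of chromosome 9, and all 3 were higher in replicate 1. They also share a low GC content, 39.1%, 39.1% and 39.4% of the longest transcript, against a median of 49.1% over the genes tested, and the ratio between these libraries moved with GC content over all genes. The trend fitted over all genes gave -0.60 for Ccr1, -0.59 for Ccr3 and -0.49 for Ccr2 on the log2 scale. With the GC and length trend of all genes removed, the log2 ratios became -0.65 for Ccr1, -0.78 for Ccr3 and -1.97 for Ccr2, still past 1.5-fold, and 15.5% of all genes were 1.5-fold higher in replicate 1 after the same correction. Ccr7, with a GC content of 53.5%, moved little, to -1.70. The receptor genes on either side of Ccr1 had few counts, 52 and 91 for Xcr1 and 2 and 0 for Ccr1l1.

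**Figure D2:**
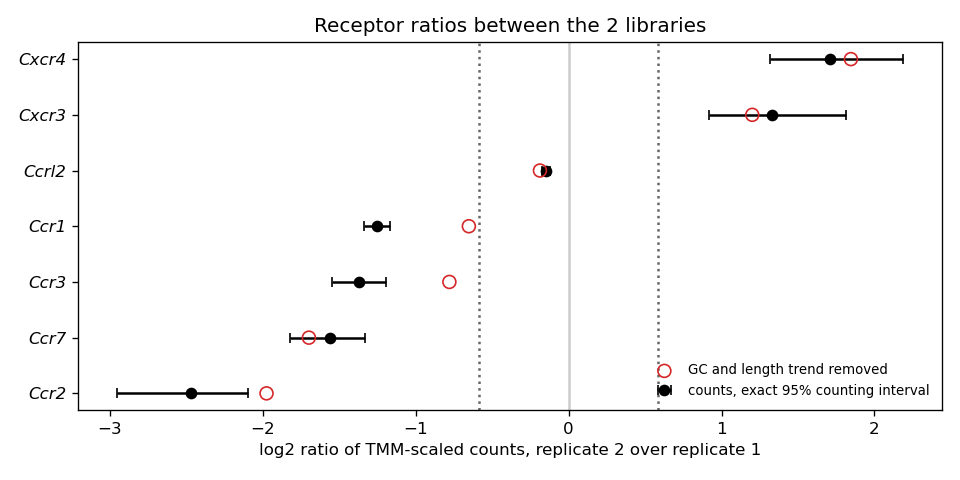
TMM-scaled counts of replicate 2 relative to replicate 1, as log2 ratios, for the 7 receptors with enough counts (black, with exact 95% counting intervals) and after removal of the GC and length trend (red circles); dotted lines mark 1.5-fold. The 4 CC receptors lie left of the lines and Cxcr3 and Cxcr4 lie right of them in both versions, with Ccr1 and Ccr3 closest to the line after the correction.

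The CXC receptors went the other way. Cxcr4, the receptor for Cxcl12 that retains cells in the marrow (ENSMUSG00000045382.6, chromosome 1, 128588199 to 128592293, minus strand), had 1.56 TPM from 55 counts in replicate 1 and 4.55 TPM from 271 counts in replicate 2, a mean of 3.06 ± 2.11 TPM (SD, n = 2). Its log2 ratio was 1.71 (1.32 to 2.18), or 3.27-fold higher in replicate 2, and 1.12 on the log2(TPM + 1) scale. Cxcr4-201 carried 87.3% and 87.5% of its TPM. Cxcr3 (ENSMUSG00000050232.6, chromosome X, 101731535 to 101734269, minus strand) had 1.48 TPM from 54 counts and 3.34 TPM from 204 counts in replicates 1 and 2, a mean of 2.41 ± 1.32 TPM (SD, n = 2). Its log2 ratio was 1.33 (0.92 to 1.82), or 2.51-fold higher in replicate 2. Without the GC and length trend the ratios were 1.85 for Cxcr4 and 1.20 for Cxcr3, and 15% of genes were then 1.5-fold higher in replicate 2. Markers of the T and NK cells that carry Cxcr3 were low in both libraries. The 6 T cell markers summed to 1.41 and 1.51 TPM, mostly from Lat (25 and 59 counts), and the 4 NK cell markers summed to 1.18 and 0.02 TPM. Their part in the Cxcr3 ratio was not tested.

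Cxcr2 and Cx3cr1 were close to undetected in the gene tables. Cxcr2 (ENSMUSG00000026180.8, chromosome 1, 74153989 to 74161246, plus strand) had 3 counts in each library, 0.04 and 0.03 TPM (mean 0.035 ± 0.00707, SD, n = 2), and an exact Poisson 95% interval of 0.619 to 8.77 counts. Cx3cr1 (ENSMUSG00000052336.7, chromosome 9, 119901616 to 120069879, minus strand) had 5 and 6 counts, 0.06 and 0.04 TPM (mean 0.05 ± 0.0141, SD, n = 2). An exon of Cx3cr1 overlaps a gene on the opposite strand, Gm33858, and the labels do not say if reads were counted by strand.

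For Cxcr2 the second quantification, made from the reads and a transcript index, gave another picture. It assigned 42.7 estimated counts (0.55 TPM) in replicate 1 and 660 (4.96 TPM) in replicate 2, all to the transcript Cxcr2-202. Over both libraries that is 117 times the first quantification, and a 10-fold or larger excess was seen for 7.21% of 13413 protein-coding genes. In the second quantification Cxcr2 would thus be higher in replicate 2, with a log2 ratio of 3.38. Of the 5 neutrophil markers with enough counts for a ratio, 4 were 1.5-fold higher in replicate 1 (80%, against 19.1% of all genes). S100a8 (127 and 5.63 TPM) and S100a9 (316 and 10.2 TPM) were among them. Mmp8 was not past 1.5-fold (8.71 and 8.15 TPM, log2 ratio 0.08). Of the 3016 runs of 31 bases in Cxcr2-202, 368 (12.2%) also occur in transcripts of 1350 other genes, while in Cxcr2-201, in which an intron divides the last exon, 2 of 2190 do. The part of these shared runs in the extra counts was not tested.

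The other receptors mostly had like counts in both quantifications. Cx3cr1 had 13.6 and 37.4 estimated counts in the second, 4.64 times the first in sum, and 106 of the 3723 runs in Cx3cr1-201 occur in other genes. The remaining 7 receptors were within 1.5 times, as were 85.3% of protein-coding genes, from 1.02 times for Cxcr3 to 1.25 times for Ccr2. Ccr7 and Cxcr3 have no run in common with another gene.

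**Figure D3:**
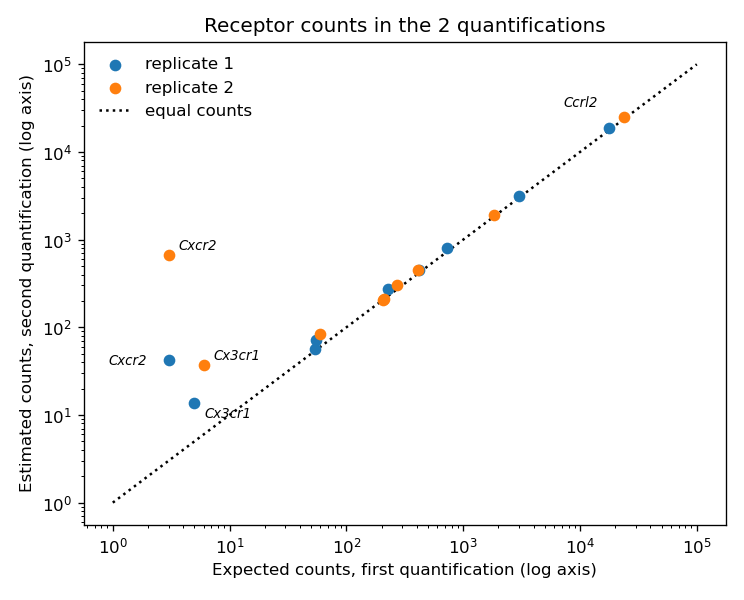
Expected counts of the first quantification against estimated counts of the second for the 9 receptors, both on log axes, with replicate 1 in blue, replicate 2 in orange and the dotted line at equal counts. Cxcr2 stands far above the line at 3 counts on the x axis, Cx3cr1 stands less far above it, and the other 7 receptors lie near it.

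Set beside their ligands, the receptors ranged from far below to above them. These ligand lists are background knowledge, and a ligand can appear under more than 1 receptor. Ccr1, at 46.6 and 17.3 TPM, had 5 listed ligands at far higher levels, from Ccl6 (513 and 218 TPM) to Ccl5 (9637 and 4636 TPM). Ccr2, at 2.57 and 0.45 TPM, had Ccl2 at 2467 and 810 TPM, Ccl7 at 2592 and 1405 TPM and Ccl12 at 1616 and 450 TPM. All 3 were 1.5-fold higher in replicate 1, as Ccr2 was, against 19.1% of all genes. With the GC and length trend removed, 2 of the 3 still were, against 15.5% of all genes, and Ccl7 was at -0.19. Cxcr3, at 1.48 and 3.34 TPM, had Cxcl10 at 9868 and 10226 TPM. Its listed ligand Cxcl9 had 331 and 1507 TPM, higher in replicate 2 as Cxcr3 was, with a log2 ratio of 1.03. Cxcl11, also listed, had 76.1 and 84.6 TPM, and the annotation does not class it as a protein-coding gene.

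The listed ligands of Ccr7 and Cxcr4, like that of Ccrl2, were below their receptors. The Ccr7 ligands Ccl19, Ccl21a and Ccl21b had 0 counts in both libraries in the gene tables. The second quantification gave Ccl19 1 estimated count in replicate 2. Near-identical copies of these genes make their counts uncertain. Cxcl12, the ligand of Cxcr4, had 6 and 5 counts. For Cx3cr1 and Cxcr2, both barely detected in the gene tables, most ligands were higher there than the receptor. In replicate 2 of the second quantification, Cxcr2 (4.96 TPM) stood above its listed ligands except Cxcl2 (23.9 TPM). Cx3cl1, the ligand of Cx3cr1, had 1.55 and 2.32 TPM and so exceeded its receptor. The neutrophil-attracting Cxcr2 ligands Cxcl1 (10.4 and 3.06 TPM), Cxcl2 (68.1 and 25.5 TPM) and Ppbp (11.8 and 1.68 TPM) were 1.5-fold higher in replicate 1. Cxcl3, with 155 and 7 counts, missed the count filter in replicate 2 alone. It is therefore not among the 15 ligands counted below, although more of its counts were in replicate 1. Of the 4 Ccr3 ligands, Ccl5 and Ccl7, already named under Ccr1 and Ccr2, were far above Ccr3 (9.68 and 3.32 TPM), Ccl24 was above it at 13.7 and 21.4 TPM, and Ccl11 was below it with 0 and 7 counts. Of the 15 ligands (of 23) with enough counts, 8 (53.3%, against 19.1% of all genes) were 1.5-fold higher in replicate 1 and 3 (20%, against 16.7%) in replicate 2. With the GC and length trend removed these were 7 (46.7%, against 15.5%) and 2 (13.3%, against 15%), so the share higher in replicate 2 was near that of all genes.

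**Figure D4:**
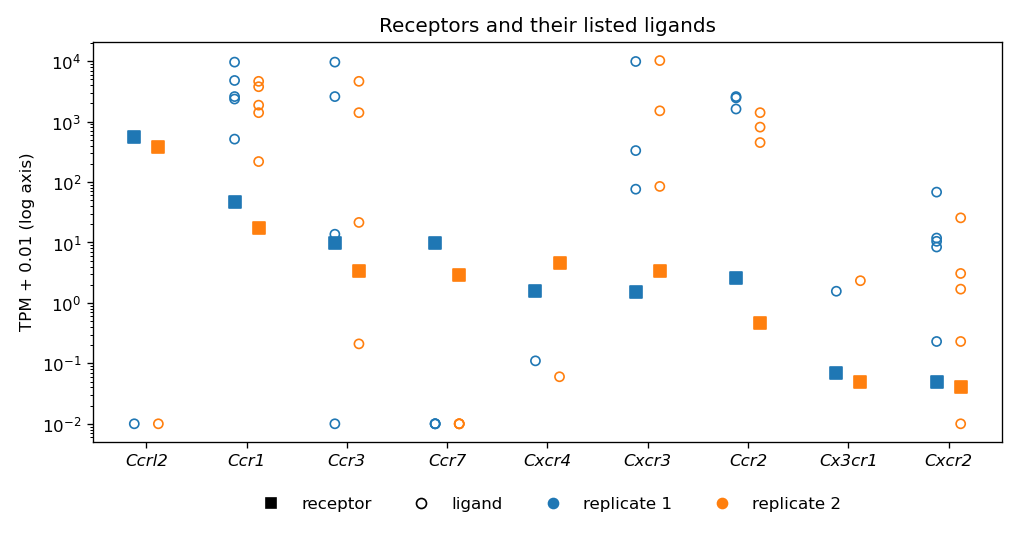
TPM + 0.01 on a log axis for each receptor (squares) and its listed ligands (open circles), replicate 1 in blue and replicate 2 in orange. Every ligand of Ccr1, Ccr2 and Cxcr3 lies above its receptor, while the ligands of Ccrl2, Ccr7 and Cxcr4 lie below theirs, at or near 0.

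Other receptors of the family were scarce. Of 17 listed, 2 reached 1 TPM in both libraries, Cmklr1 among them, and 9 had 0 counts in both. The machinery downstream of the receptors was present, with 25 of 26 listed genes at 1 TPM in both libraries. The highest were Rgs1, a G protein brake, with 1474 and 725 TPM, the motility GTPase Rac2 with 389 and 887 TPM, and the inhibitory G protein subunit Gnai2 with 311 and 532 TPM. The lowest was Rgs16, with 0.47 and 0.49 TPM. Of the 26 genes 9 were 1.5-fold higher in replicate 2 (34.6%, against 16.7% of all genes), among them Gnai2, the phosphoinositide 3-kinase subunit Pik3r5 (257 and 464 TPM) and the Rac activator Dock2 (46.5 and 76.2 TPM). The 4 higher in replicate 1 (15.4%, against 19.1%) were Gnai3 (98.95 and 32.0 TPM), Gnb2, Grk6 and Rgs18. After correction for GC and length, 6 of the 26 genes (23.1%, against 15%) were higher in replicate 2, nearer to the share over all genes, and 3 (11.5%, against 15.5%) in replicate 1. Rgs18 went from a log2 ratio of -1.35 to -0.08, and Rgs1 changed sign, from a log2 ratio of -0.52 to 0.33.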

How the data were processed

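Polyadenylated RNA of 2 libraries of 1 group was measured. The authors deposited, per the file headers and the notes that came with the files, a gene and a transcript table in the RSEM layout, made from alignments to the transcriptome, and a transcript table in the kallisto layout, made from reads and an index (the second quantification), on mm10 with the GENCODE M21 annotation. Which aligner and which program versions were used is not stated in these sources. The deposited expected counts (estimated counts in the second table) are not normalized and can be fractional. The deposited TPM and FPKM are scaled to length and library, and FPKM served in 1 alternative. The deposited percent column is the share of a gene's TPM in each transcript. TPM depends on assigned length, so ratios came from counts.

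Rows that are no gene (26345, holding 0.132% and 0.0882% of counts) were left out. Counts were rounded, filtered with filterByExpr (12226 genes) and scaled by TMM in edgeR 4.0.16 (R 4.3.3). Log2 ratios used a prior count of 2 and were called at 1.5-fold, with no test and no p-value, since 1 library stands on each side. The calculation was tested on simulated data. The GC and length trend was a polynomial (degree 3 in GC, degree 2 in log length). With 2 libraries no gene was sought for a like pattern. Named genes are the 9 receptors, their neighbours, other receptors at 1 TPM or more, the listed ligands, the highest, lowest and 1.5-fold different signalling genes, and markers; Gpr1, Rgs18 and Rgs1 were named after their values were seen. Members and lists were chosen with earlier results of these data known. The rule also takes in genes whose single values are left out.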

Additional observations from a re-analysis of the deposited data

How the results depend on the processing

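The 4 CC receptors stayed 1.5-fold higher in replicate 1, and Cxcr3 and Cxcr4 higher in replicate 2, under median-of-ratios scaling, total counts alone, no filter, a prior count of 0.5, log2(TPM + 1), the second quantification, removal of the GC and length trend, and a 2-fold line. Over all genes, the share higher in replicate 1 ran from 4.61% (log2(TPM + 1)) to 27.0% (total counts alone). The share higher in replicate 2 ran from 2.79% (log2(TPM + 1)) to 19.9% (no filter). In the second quantification Cx3cr1 and Cxcr2 joined Cxcr3 and Cxcr4, which made 4 receptors higher in replicate 2 against 2. There 16.8% of 14029 genes were higher in replicate 2, and the cause of the added calls was not tested. The number at 1 TPM in both libraries was 4 at a threshold of 2 TPM, 5 by FPKM, and 6 to 7 with either library left out. The share over all genes is not given for these settings. The median level was 3.68 TPM when rescaled over nuclear protein-coding genes, 1.98 as FPKM, and 2.57 to 3.32 TPM with either library left out. The comparison with the second quantification of leading transcripts was chosen after seeing the data, and 4 of 5 receptors with several transcripts kept 1 leader across libraries there, against 5 of 5. Total counts alone shifted the median log2 ratio of all genes to -0.19. No paired analysis was possible because the series holds 1 group. The 3 to 6 counts of Cxcr2 and Cx3cr1 in the gene tables allow no ratio there, and 2 libraries limit every spread.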
